A study of Mus musculus with 42 samples.

Results

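Cathepsins are the proteases of the lysosome. The 9 described here are Ctsa, Ctsb, Ctsc, Ctsd, Ctse, Ctsh, Ctsl, Ctss and Ctsz. They were listed by name and are rows of all 3 expression tables of the study, out of 20661 genes. The tables also hold 13 other cathepsins. The rule uses no measured value, but the list was made with earlier results of these data known. Most cathepsins are made as inactive precursors, carried to the lysosome by sugar-tag receptors and activated by cleavage at low pH. In brain they degrade proteins in neurons and glia, and microglia, the brain's resident phagocytes, are known as a rich source of several of them, cathepsin S above all. Loss of cathepsin D or of several other lysosomal enzymes is known to cause storage disease with neuron loss.

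The mouse RNA-seq libraries form 3 sets. One is of oligodendrocyte TRAP (translating ribosome affinity purification, in which RNA on tagged ribosomes of 1 cell type is immunoprecipitated), with 24 libraries: 7 of frontal cortex, 6 of subcortical white matter, 6 of cerebellum and 5 of spinal cord. The sources used here do not name the transgenic line behind them, nor age or sex. Another holds bulk frontal cortex of mice labelled rTg4510- (n = 3) and rTg4510+ (n = 3), with titles that mark 8 months. rTg4510 is a tauopathy line in which a mutant human tau transgene is switched on in forebrain neurons by a separate driver transgene, and the labels do not say whether the rTg4510- mice carry the driver. The last holds bulk prefrontal cortex of mice labelled miR-142-null (n = 4), miR-142-heterozygotes (n = 4) and miR-142, titled WT (n = 4). miR-142 is a microRNA of blood and immune cells, and its own row was not analysed here. The labels do not say that each library is a different mouse, so the p-values cover only the spread among the sequenced samples, which may be technical.

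Levels are in RPKM, reads scaled to gene length and to the library's total, a unit per length, so genes can be compared within a library. Total reads, recovered from the RPKM steps, were 3.26 to 36.79 M per TRAP library, 13.87 to 27.02 M per rTg4510 library and 22.78 to 31.8 M per miR-142 library. Of the 5 spinal cord libraries, numbers 4 and 7 correlated least with the others (mean r 0.797 and 0.796, against 0.836 to 0.85). All 10 oligodendrocyte markers were present in every TRAP region, with a median difference of 2.76 on the log2 scale between cortex TRAP and bulk wild-type cortex. The 8 neuron markers were read there too, at a summed 4030 to 12300 RPKM per TRAP library. Y-linked genes were present in every TRAP library: Ddx3y was at 27.9 RPKM or more in each.

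Cysteine proteases are encoded by 6 of the genes: Ctsb, Ctsl, Ctss, Ctsc, Ctsh and Ctsz. Ctsb (chr14:63122462-63145923, mouse GRCm38.p6) encodes cathepsin B, which cuts within proteins and also trims their carboxyl ends. Ctsl (chr13:64361890-64370772) encodes cathepsin L, a broad endopeptidase. Ctss (chr3:95526786-95556405) encodes cathepsin S, which keeps activity near neutral pH and processes the MHC class II invariant chain. Ctsc (chr7:88278024-88315861) encodes cathepsin C, a dipeptidyl peptidase that activates granule serine proteases. Ctsh (chr9:90054267-90076095) encodes the aminopeptidase cathepsin H, and Ctsz (chr2:174427494-174439039) the carboxypeptidase cathepsin Z. Ctsd (chr7:142375910-142387827) and Ctse (chr1:131638314-131675507) encode aspartic proteases, the main lysosomal one and an endosomal one of immune cells and stomach. Ctsa (chr2:164832872-164841032) encodes a serine carboxypeptidase that also protects neuraminidase and beta-galactosidase in a complex.

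Because the 9 genes rose together in rTg4510 cortex (values follow), their promoters were searched, from 250 bases before to 50 bases after each annotated start, for 3 motifs on both strands. CACGTG is the core letters of E-boxes, TCACGTGA extends it to the letters typical of the lysosomal element bound by TFEB and its relatives (each TCACGTGA therefore also counts as a CACGTG), and GAGGAAGT is of the kind bound by the myeloid factor PU.1. RefSeq promoters (GRCm38.p6) matched 6 of 9 genes. CACGTG stood in promoters of 3 of these 6 (Ctsa, Ctsd and Ctsl), against 8.09% of the 27025 genes with a promoter entry, TCACGTGA in 2 of 6 (Ctsa and Ctsd), against 1.12% of genes, and GAGGAAGT in 2 of 6 (Ctsc and Ctss), against 3.69%. Per promoter, the shares of all 32851 entries were 7.15%, 0.974% and 3.2%. A window around a match in each of these 5 genes is shown 5′ to 3′ on the gene's strand with the motif, or its reverse complement ACTTCCTC, in capitals. They are placed at chr2:164833758-164833786 (plus strand, second of 2 annotated Ctsa starts), chr7:142387908-142387937 (minus), chr13:64370739-64370768 (minus), chr7:88277923-88277952 (plus) and chr3:95526773-95526802 (plus).
Ctsa: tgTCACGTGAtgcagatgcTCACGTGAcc
Ctsd: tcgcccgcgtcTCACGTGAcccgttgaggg
Ctsl: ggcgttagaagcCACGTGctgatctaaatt
Ctsc: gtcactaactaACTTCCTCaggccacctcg
Ctss: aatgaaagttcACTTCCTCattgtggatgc
The Ctsa window spans the start site and holds the palindrome at 2 places, while the Ctsz promoter held none of the 3 motifs. These are matches of letters, not measured binding.

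All 9 cathepsins were higher in rTg4510+ than in rTg4510- frontal cortex, and for none of the 9 did the groups overlap. The fold of the mean RPKM ran from 1.5 for Ctsb to 2.8 for Ctss and Ctsh, with Ctse, near its detection floor in rTg4510-, at 22.4. Each of the 9 passed limma's moderated test across the table with Benjamini-Hochberg adjustment (adjusted p under 0.05), where 5.77% of the 13972 genes tested were called higher. By overlap alone, 23.3% of genes tested had all 3 rTg4510+ libraries above all 3 rTg4510- libraries. In bulk tissue, more cells of a type and more RNA per cell cannot be told apart. Genotype and sex cannot be told apart here either: Y-linked Ddx3y was at 46.8 to 54.5 RPKM in the 3 rTg4510- libraries and at 0.11 to 0.118 RPKM in the 3 rTg4510+ libraries, and Eif2s3y, Kdm5d and Uty showed the same split.

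Among the cysteine endopeptidases, Ctss had the highest change of an abundant member. Its level was 69.4, 91.4 and 78.9 RPKM in rTg4510- libraries 1 to 3 and 234, 223 and 213 RPKM in rTg4510+ libraries 1 to 3. The rTg4510+ libraries were all far above the others and close to each other, and the log2 fold change was 1.49 ± 0.11 (SE, limma adjusted p = 6.5e-04). Ctsb, the most abundant cathepsin in rTg4510- cortex, was at 400, 351 and 387 RPKM in the rTg4510- libraries and at 602, 548 and 560 RPKM in the rTg4510+ libraries. The groups were apart but the step was the smallest of the 9, a log2 fold change of 0.59 ± 0.08 (limma adjusted p = 0.0078). Ctsl went from 83.9, 81.5 and 75.7 RPKM to 120, 131 and 140 RPKM, again without overlap. Its log2 fold change was 0.69 ± 0.09 (limma adjusted p = 0.0047).

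The exopeptidases of the cysteine class started from low to middle levels. Ctsz was at 37.8, 44.2 and 35.9 RPKM in rTg4510- and at 112, 94.6 and 100 RPKM in rTg4510+, a log2 fold change of 1.37 ± 0.11 (limma adjusted p = 7.7e-04). Every rTg4510+ library was thus more than double any rTg4510- library's level for this carboxypeptidase. Ctsh, the aminopeptidase, was at 5.22, 6.06 and 3.25 RPKM in rTg4510- and at 13, 14.1 and 13.6 RPKM in rTg4510+. The rTg4510- libraries spread more than the rTg4510+ ones, and the log2 fold change was 1.43 ± 0.20 (limma adjusted p = 0.0075). Ctsc was at 6.98, 6.98 and 5.17 RPKM in rTg4510- and at 13.9, 15.4 and 15.2 RPKM in rTg4510+. Its groups did not overlap either, with a log2 fold change of 1.17 ± 0.14 (limma adjusted p = 0.0042).

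The aspartic proteases held both the highest level and the largest fold. Ctsd was at 287, 284 and 270 RPKM in rTg4510- and at 751, 564 and 607 RPKM in rTg4510+, and its log2 fold change was 1.18 ± 0.11 (limma adjusted p = 0.0016). In rTg4510+ library 1 it stood highest, and in all 3 rTg4510+ libraries Ctsd passed Ctsb as the most abundant of the 9. Ctse was counted with only 6, 2 and 2 reads in the rTg4510- libraries (0.212, 0.0855 and 0.0791 RPKM) and with 88, 76 and 53 reads in the rTg4510+ libraries (2.73, 2.47 and 3.21 RPKM). Its log2 fold change, 2.40 ± 0.19 (limma adjusted p = 8.6e-04), understates the ratio of the means because 0.5 was added before taking logs. The serine carboxypeptidase Ctsa was at 69.8, 71.2 and 69 RPKM in rTg4510- and at 127, 101 and 112 RPKM in rTg4510+. The rTg4510- libraries were nearly equal, and the log2 fold change was 0.69 ± 0.10 (limma adjusted p = 0.0074).

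These calls rest in part on limma's sharing of spread across genes: with each gene's own 4 residual degrees of freedom, Ctsd, Ctse, Ctss and Ctsz kept an adjusted p under 0.05 and the other 5 had 0.0516 to 0.0918. Leaving out any 1 of the 6 libraries lost no call among the cathepsins that were still tested. Ctse was no longer tested without an rTg4510+ library.

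**Figure D1:**
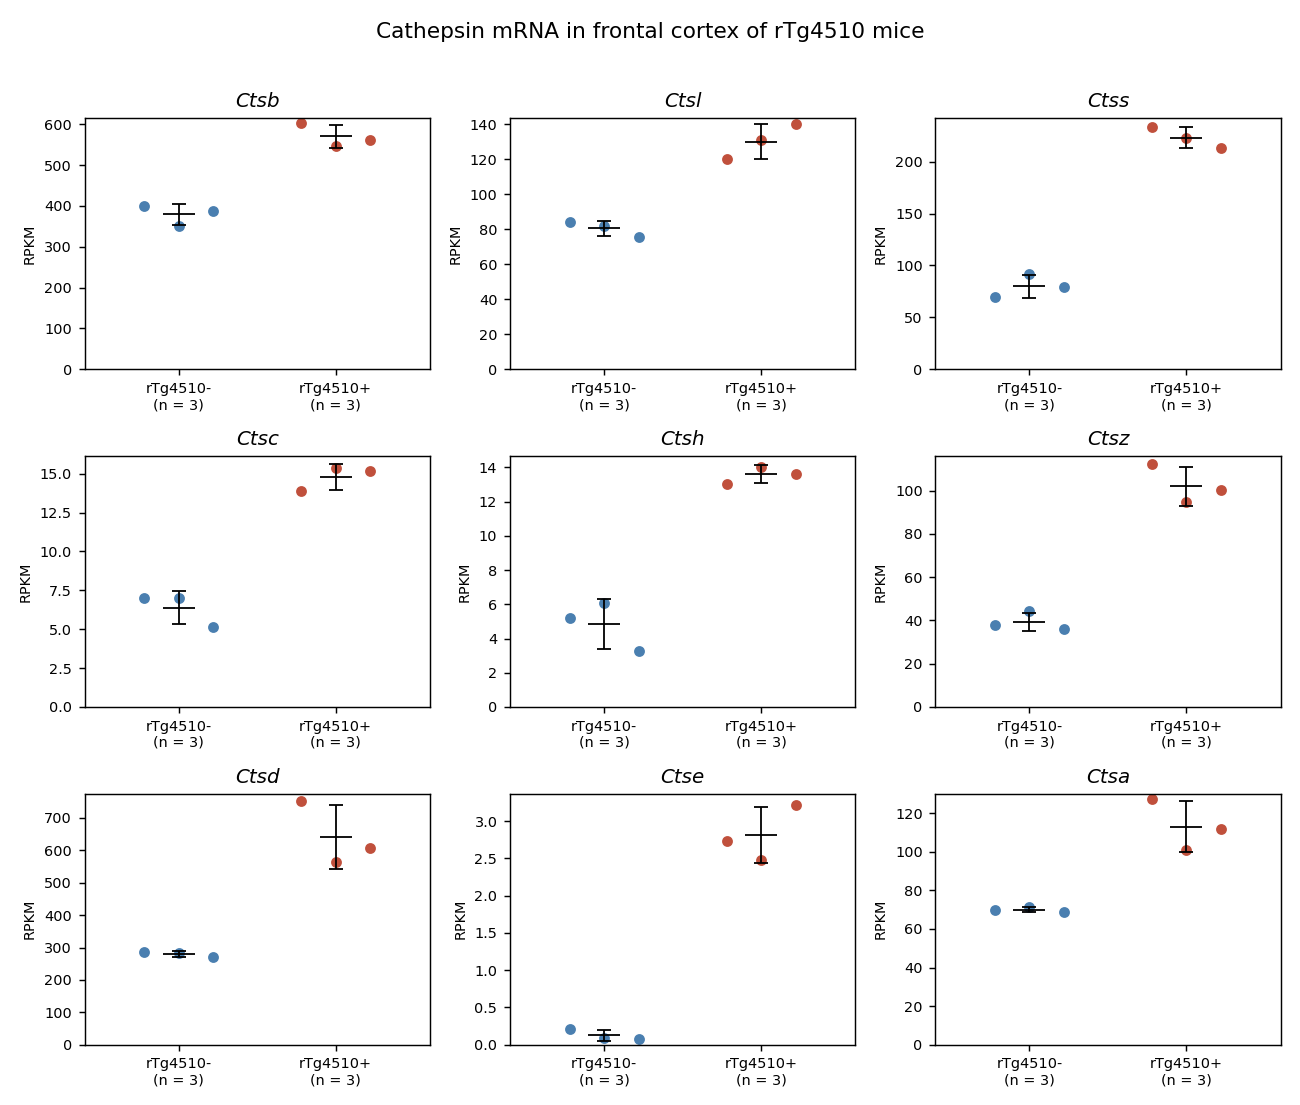
RPKM (vertical axis, from 0) of the 9 cathepsins in each rTg4510- and rTg4510+ frontal cortex library (points), with mean and SD (black bars, n = 3 each). In every panel the 3 rTg4510+ points lie above the 3 rTg4510- points, from 1.5-fold in the means for Ctsb to 2.8-fold for Ctss and Ctsh, with Ctse rising from a few reads.

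The members' steps were unequal, so the mix of cathepsin mRNA shifted. The summed level of the 9 rose from 924 to 960 RPKM in rTg4510- libraries to 1690 to 1980 RPKM in rTg4510+ libraries. Ctsb took 37.5% to 41.8% of that sum in rTg4510- and 30.5% to 32.3% in rTg4510+, while Ctsd went from 29.2% to 30.3% up to 33.3% to 38%. Ctss rose in share from 7.23% to 9.76% up to 11.8% to 13.2%, and Ctsz from 3.89% to 4.72% up to 5.58% to 5.68%. None of these 4 pairs of ranges overlapped. Neither did those of Ctsa and Ctsl, which fell in share, or Ctsh and Ctse, which rose, while those of Ctsc overlapped. How often shares of other genes would separate in this way was not worked out. These shares are descriptions and were not tested.

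Markers of microglia moved in the same libraries. Of 15 microglia markers, 8 passed limma's test as higher and none as lower, with a list median of 0.59 on the log2 scale against 0.09 for all genes tested, and their summed level went from 265 to 306 RPKM in rTg4510- to 416 to 527 RPKM in rTg4510+. Cx3cr1, Csf1r, Ptprc and Tmem119 were among the 8, at log2 fold changes of 1.26, 1.19, 1.37 and 0.78 (limma adjusted p = 0.0014, 0.0012, 0.0126 and 0.0148), whereas P2ry12, a receptor of resting microglia, was at 57.4 ± 9.79 and 56.1 ± 8.03 RPKM (SD, n = 3 each). Of 17 genes known from disease-associated microglia, with cathepsins left out of the list, 14 were higher and 1, Lpl, was lower, with a median of 1.74. Cst7, Tyrobp, Lyz2 and Cd68 had the smallest adjusted p of that list, with log2 fold changes of 4.70, 1.86, 2.37 and 2.0 (limma adjusted p = 1.5e-04, 1.5e-04, 4.1e-04 and 7.5e-04). Cst7 met the filter only through its rTg4510+ libraries, so its call and its part in the count are not separate support. Of 8 astrocyte markers 3 were higher, Gfap (log2 fold change 2.68), Aqp4 and Gja1. None of 7 border macrophage markers passed, with a list median of 0.64 and a summed 4.69 to 10.7 RPKM in rTg4510- and 13.6 to 18.4 RPKM in rTg4510+. None of 3 neutrophil, 10 oligodendrocyte or 7 endothelial markers tested passed, and of 8 neuron markers 1, Nefl, was lower. The part of any cell type in the cathepsin changes was not tested.

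Set against the microglia markers of the same library, the cathepsins differed in how far they had moved. After subtracting each library's mean log2 level of the 15 markers, Ctsa, Ctsb and Ctsl differed by -0.04 (95% interval -0.22 to 0.14), -0.14 (-0.52 to 0.24) and -0.03 (-0.45 to 0.39), intervals from each gene's own spread. With library weights Ctsb was called lower, at -0.25 (limma adjusted p = 0.00191). For Ctsb the log2 distance to the marker mean was 4.94, 4.51 and 4.85 in rTg4510- and 4.57, 4.71 and 4.6 in rTg4510+, which overlap. Ctss, Ctsz, Ctsh, Ctsd and Ctse were higher on this scale, by 0.76, 0.64, 0.71, 0.46 and 1.68, and Ctsc was at 0.44. The distance for Ctss was 2.42, 2.58 and 2.57 in rTg4510- and 3.21, 3.42 and 3.21 in rTg4510+, and for Ctsz 1.55, 1.54 and 1.44 against 2.15, 2.19 and 2.13. Neither pair of groups overlapped, and how many of all genes separated on this scale was not counted. limma called 5 of the 9 higher on this scale (Ctsd, Ctse, Ctsh, Ctss and Ctsz; Ctsc had an adjusted p of 0.056), where 1.12% of genes tested were called higher and 75.1% either way. The call of Ctse is again not separate support, since only its rTg4510+ libraries met the filter. The subtracted mean is shared by all genes, so its error is shared too and limma's moderated p is too small here. With each gene's own spread, 4 remained under 0.05 (Ctsd, Ctse, Ctss and Ctsz, adjusted p = 0.0248, 0.0165, 0.0167 and 0.0146) and Ctsh had 0.0643. Without rTg4510- library 3, where Ctsh was lowest, limma's value for Ctsh was 0.50 (adjusted p = 0.0818), and without rTg4510+ library 1 that for Ctsc was 0.55 (adjusted p = 0.0239). The markers themselves moved unequally: P2ry12 hardly moved, while Cx3cr1, Csf1r and Ptprc each rose at least as far as Ctsd and Ctsc. Values on this scale therefore depend on which markers are averaged, and other sets of markers were not tried. The scale is a ratio of RNA levels, not a count of cells.

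**Figure D2:**
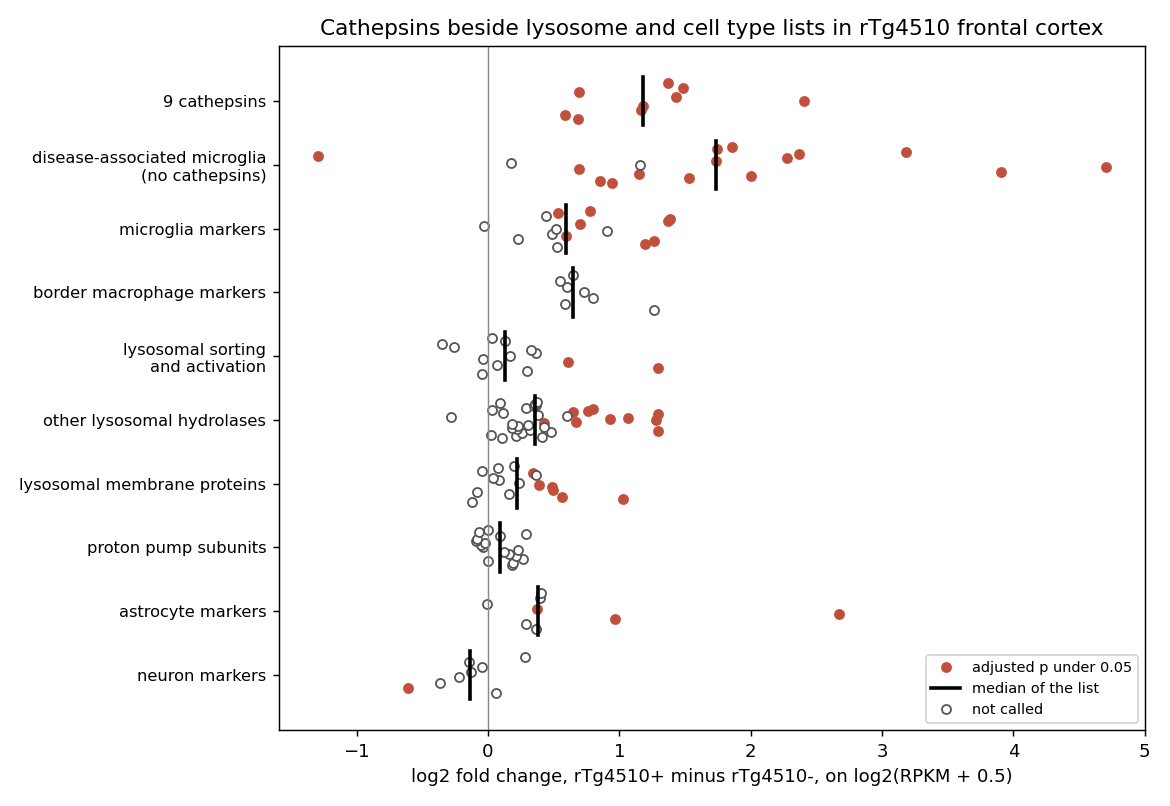
Log2 fold change (horizontal axis, rTg4510+ minus rTg4510-) of each gene tested in 10 lists; filled points passed limma's test, open points did not, and black bars are list medians. All 9 cathepsins are filled, with a median of 1.18, between disease-associated microglia genes at 1.74 and microglia markers at 0.59, while no proton pump subunit is filled. Ctse and, among disease-associated microglia genes, Cst7 entered the test only through their rTg4510+ libraries.

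Other lysosomal genes were read in the same fit, and no test set them against the cathepsins. Of 34 other hydrolases and soluble proteins of the lysosome, 10 were higher and none lower (median 0.36), among them Gusb, a glucuronidase, and Npc2, a cholesterol carrier, at log2 fold changes of 1.28 and 0.80 (limma adjusted p = 0.0026 and 0.0028). Of 16 lysosomal membrane proteins tested, 6 were higher (median 0.22), among them Cd63 (1.03 ± 0.11, limma adjusted p = 0.0029) and Lamp1 (0.49 ± 0.07, limma adjusted p = 0.0096). Of 13 genes of sorting and activation, 2 were higher: Grn, the progranulin gene (1.29 ± 0.14, limma adjusted p = 0.0029), and Lgmn, the protease that cleaves several cathepsins to their mature forms (0.61 ± 0.08, limma adjusted p = 0.0068). The mannose 6-phosphate receptor genes M6pr and Igf2r did not pass, at 0.17 ± 0.07 and 0.07 ± 0.10. None of 17 proton pump subunits tested and none of 3 MiT/TFE transcription factors passed, with medians of 0.09 and 0.39. The pump subunit Atp6v1a was at 348 ± 31.4 and 338 ± 10.5 RPKM in rTg4510- and rTg4510+ (SD, n = 3 each). Among the factors Tfe3 was at 13.2 ± 1.11 and 15.8 ± 2.04 RPKM and Mitf at 10.7 ± 0.636 and 23.7 ± 9.85 RPKM.

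The inhibitors of cysteine cathepsins changed as well. Of 4 cystatin family genes tested, 3 were higher and 1 lower. Cst7, cystatin F (also in the list of disease-associated microglia), which is made by immune cells and acts inside the lysosome, went from 0.178 ± 0.229 to 16.7 ± 2.91 RPKM. Like Ctse, it entered the test only through its rTg4510+ libraries, so its call is not separate support in either list. Cst3, cystatin C, the main secreted inhibitor, went from 2830 ± 136 to 5230 ± 564 RPKM (log2 fold change 0.88 ± 0.10, limma adjusted p = 0.0030). Cstb was higher by 0.45 and Cst6 was lower, at -0.58. Among cathepsins outside the 9, 10 of 13 were too low to test, Ctso was higher (0.64 ± 0.14, limma adjusted p = 0.031), and Ctsf and Ctsk did not pass at 0.28 and 0.20.

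In prefrontal cortex of the miR-142 mice, no cathepsin passed the test in any of the 3 genotype comparisons. Ctsb ranked highest and Ctsd next in all 12 libraries, as they did in the rTg4510- libraries. Between null and wild type, 0.468% of 13879 genes tested were called, and between heterozygous and wild type or null and heterozygous 0% were (0 genes by limma, with 1008 and 456 at an unadjusted p under 0.05, and 1 and 0 with library weights). The largest differences were those of Ctsl and Ctsz, both higher in null than in wild type by 0.27 on the log2 scale.

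Ctsz was at 36.4, 37.5, 44.1 and 36.6 RPKM in the null libraries, at 32, 30.7, 31.9 and 35.6 RPKM in the heterozygous and at 36.5, 30.2, 30.2 and 31.1 RPKM in the wild type. All 4 null libraries were above all 4 heterozygous ones, which 1.31% of genes tested showed in that direction, but wild-type library 1 lay within the null range. The null minus wild-type difference was 0.27 ± 0.08 (SE, limma adjusted p = 0.081, 95% interval 0.1 to 0.44), and the null minus heterozygous one 0.24 ± 0.08 (limma adjusted p = 0.99). Without wild-type library 1 the first had an adjusted p of 0.0341. Ctsl was at 86.6, 77.4, 87.2 and 82 RPKM in null, at 79.7, 77.7, 79.1 and 75 RPKM in heterozygous and at 73.6, 78.7, 59.7 and 66 RPKM in wild-type libraries. Null and wild type overlapped only through null library 2 and wild-type library 2, and the difference was 0.27 ± 0.07 (limma adjusted p = 0.072, 95% interval 0.11 to 0.43). Without null library 2 it had an adjusted p of 0.0489.

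The other members lay within narrow intervals. Null minus wild type was 0.09 for Ctsb (95% interval -0.06 to 0.24), 0.05 for Ctsd (-0.06 to 0.15), 0.07 for Ctsa (-0.09 to 0.22) and 0.04 for Ctss (-0.09 to 0.18), all on the log2 scale. Ctss was at 74.5 to 85.7 RPKM in null and 76.3 to 83.8 RPKM in wild-type libraries, and Ctsd at 246 to 267 and 237 to 259 RPKM, so both overlapped. Ctsc differed by -0.03 (-0.2 to 0.14) and Ctsh by -0.14 (-0.36 to 0.08), at 9.37 to 11.6 RPKM in null and 9.27 to 13 RPKM in wild type. Ctse had 0 to 3 reads per library in all 12 and was not tested. Microglia markers did not separate the genotypes, at a summed 295 to 336 RPKM in null, 289 to 327 RPKM in heterozygous and 302 to 342 RPKM in wild-type libraries, with 0 of 15 called between null and wild type.

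The genotypes were uneven in title codes, which join a letter (F or M) to 13, 14 or 15. Ddx3y was at most 0.0797 RPKM in the 4 F libraries and at least 50.4 RPKM in the 8 M libraries. Between F and M libraries the cathepsins other than Ctse differed by -0.09 to 0.11 in mean log2 level, and the ranges of all 9 overlapped. Ctss, for example, was at 76.3 to 87.2 RPKM in F and 72.9 to 85.7 RPKM in M libraries. That is a description over mixed genotypes and another cortex dissection than in the rTg4510 set. Null and wild-type libraries share no title code, the null ones carrying F14 and M14 and the wild-type ones F13 and M15, so genotype and code cannot be told apart between them. A fit with the code as a term compares them only by way of the heterozygous libraries, and it called no gene of the whole table.

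The seed of the 3p strand of the deleted microRNA was looked for in the cathepsin mRNAs. Its sequence in RefSeq (GRCm38.p6, chr11:87756903-87756925, plus strand) has bases 2 to 8, the seed, in capitals.
mmu-miR-142a-3p: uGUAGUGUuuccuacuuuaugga
The matching letters ACACTAC, and CACTACA for bases 2 to 7 followed by A, were in no annotated transcript end of the 9 genes in GENCODE vM21, searched after the stop codon. Of 20953 genes searched the same way, 6.31% held the first and 7.62% the second. Matches elsewhere in these transcripts, and matches to the seed of the other strand, mmu-miR-142a-5p, were not searched.

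**Figure D3:**
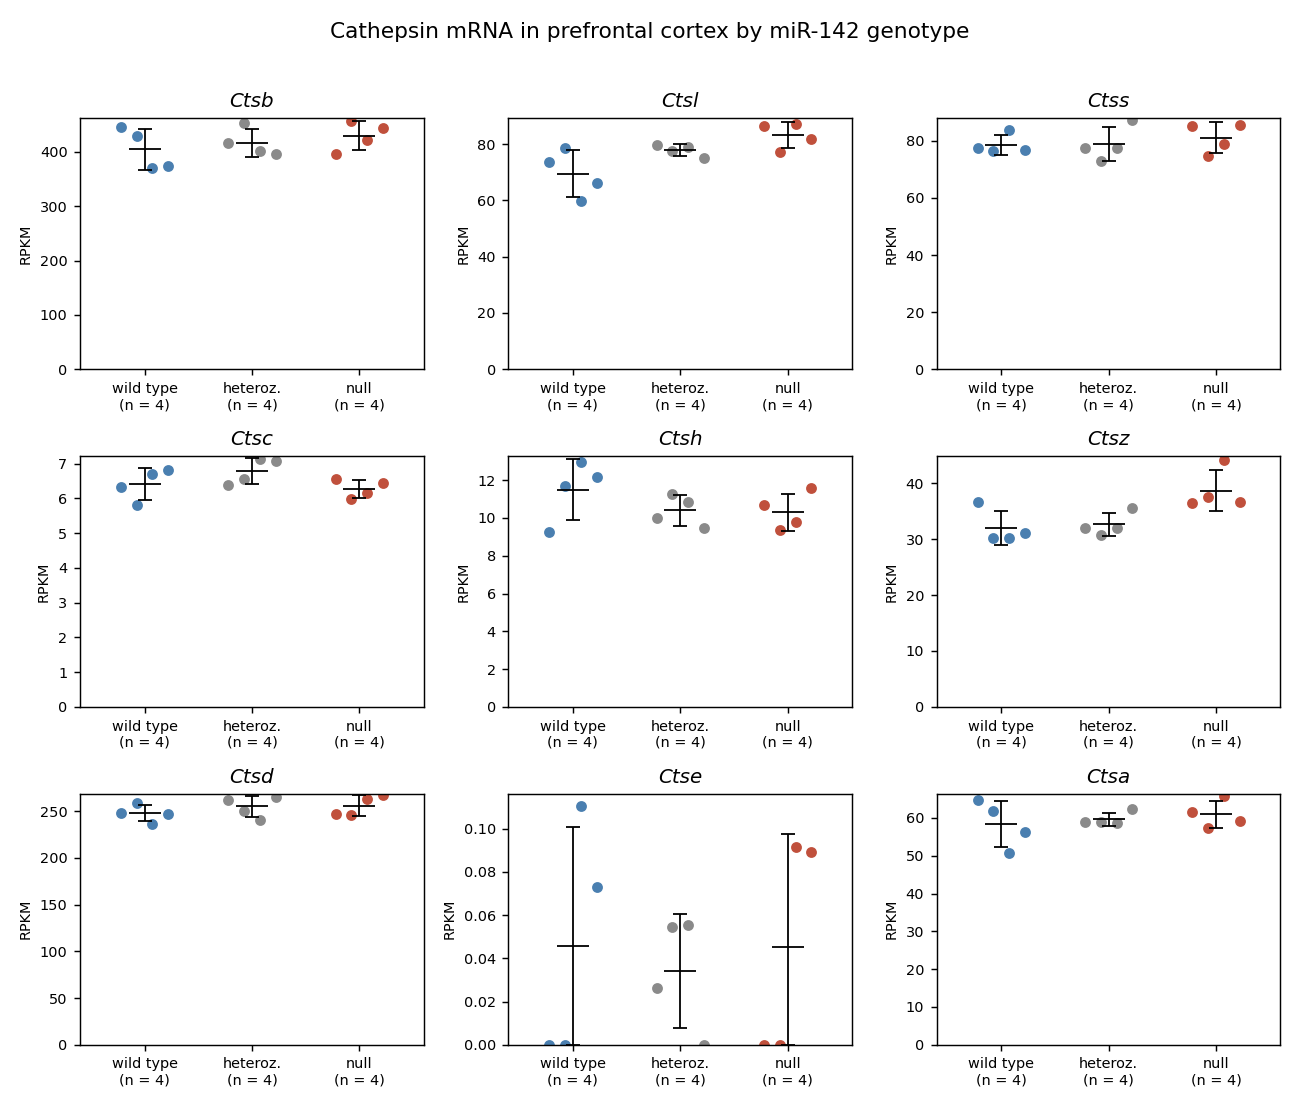
RPKM (vertical axis, from 0) of the 9 cathepsins in each prefrontal cortex library by miR-142 genotype (points), with mean and SD (black bars cut at 0, n = 4 each). Groups overlap in most panels; the 4 null points for Ctsz lie above the 4 heterozygous ones, and for Ctse no library has more than 3 reads.

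In the oligodendrocyte TRAP libraries Ctsb was the most abundant cathepsin in every region, with means of 225 to 317 RPKM, followed by Ctsd and Ctsl in the means. Regional differences passed limma's F test over the 4 regions for 3 of the 8 cathepsins tested, Ctsd (adjusted p = 0.0118), Ctsh (0.0069) and Ctss (0.029), where 47.1% of 13982 genes tested passed; Ctsz missed narrowly (adjusted p = 0.05002). The Ctss call was lost without any 1 of 6 libraries (adjusted p up to 0.0845, without spinal cord library 5) and Ctsz was called without any 1 of 6 (down to 0.0255, without cerebellum library 2). With quantile normalization Ctsd (F test adjusted p = 0.0904) and Ctss (0.115) were lost and Ctsz passed (0.00743). Ctss was also lost with median-of-ratios scaling (0.0501) and with the title's library number as a block in the fit (0.0666). Ctsd and Ctsz were lowest in cortex and highest in spinal cord, whereas Ctss and Ctsh were highest in white matter. With 8 cathepsins tested, the share called was near the share of all genes and is not a result about the cathepsins. In the pairs with spinal cord the median over all genes was itself shifted, by 0.33, 0.30 and 0.26 on the log2 scale toward cortex, white matter and cerebellum. Relative to that median, a cathepsin higher in spinal cord lies farther out by this shift, and a lower one closer in.

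The cortex libraries had 58.6, 76.1 and 95 RPKM of Ctsd (lowest, median and highest), those of white matter 52.6, 100 and 157 RPKM, and those of cerebellum 86.7, 115 and 163 RPKM. Spinal cord libraries 3, 4, 5, 7 and 8 had 199.9, 121, 123, 207 and 122 RPKM. Every spinal cord library was above every cortex library, which 6.75% of genes tested showed in that direction, and the other regions lay between and overlapped both. Cortex minus spinal cord was -0.96 ± 0.25 (SE, limma adjusted p = 0.0026), in a pair where 43.7% of genes were called. Cortex minus cerebellum was -0.63 ± 0.24 (limma adjusted p = 0.049, 24.6% of genes called), a call lost without any 1 of 13 libraries, with adjusted p up to 0.128 without cerebellum library 8. The call was also lost with the title's library number as a block in the fit (limma adjusted p = 0.0728). White matter did not pass against any of the other 3 regions, with limma adjusted p from 0.071 to 0.58. Its difference from spinal cord passed without white matter library 3 (-0.76, adjusted p = 0.0281) and with median-of-ratios scaling (-0.82, adjusted p = 0.0225). Ctsd also made up more of the cathepsin sum in spinal cord, 27.5% to 34.2% per library, than in cortex (14.3% to 21.9%), white matter (13.3% to 23.9%) or cerebellum (16.7% to 23.2%), with no overlap. This share is a description and was not tested.

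For Ctsz the lowest, median and highest values were 5.25, 7.45 and 13.7 RPKM among cortex libraries, 4.75, 12.8 and 23.2 RPKM among those of white matter and 6.51, 15.2 and 20.3 RPKM among those of cerebellum. Spinal cord libraries 3, 4, 5, 7 and 8 had 17.5, 18, 22.1, 17.7 and 15.8 RPKM. The spinal cord libraries were tightly grouped and above all 7 cortex libraries, while white matter spread over nearly the whole range. Cortex minus spinal cord was -1.17 ± 0.37 (limma adjusted p = 0.012), and no other pair passed for Ctsz; without cerebellum library 2 cortex minus cerebellum did (-1.01 ± 0.36, adjusted p = 0.036).

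Ctss ran over 4.21, 12.7 and 21.6 RPKM in the cortex libraries (lowest, median, highest), over 6.71, 19.9 and 27.5 RPKM in those of white matter and over 2.85, 7.82 and 11 RPKM in those of cerebellum. The 5 spinal cord libraries, in the same order as before, had 2.41, 2.17, 0.538, 21.9 and 6.33 RPKM. All regions overlapped, and spinal cord library 7, the shallowest of all with 73 Ctss reads, reached the level of the highest cortex library. White matter was higher than spinal cord by 2.0 ± 0.58 (limma adjusted p = 0.011, 27.7% of genes called in this pair), and cortex was higher than spinal cord by 1.42 ± 0.56 (limma adjusted p = 0.042). The second call was lost without any 1 of 7 libraries (cortex 2, 3, 4 and 8 and spinal cord 3, 4 and 5), down to a difference of 0.92 (adjusted p = 0.181) without spinal cord library 5, and quantile normalization gave 0.70 (adjusted p = 0.309) for it and 1.41 (adjusted p = 0.0634) for the white matter difference. With the title's library number as a block in the fit, the cortex difference was 1.34 and not called (limma adjusted p = 0.0775).

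Ctsh had 0, 2.81 and 6.04 RPKM as lowest, median and highest cortex values, 2.97, 5.33 and 8.72 RPKM as those of white matter and 0.272, 0.523 and 2.24 RPKM as those of cerebellum. The spinal cord libraries had 0, 0, 3.4, 0 and 2.22 RPKM. Every white matter library was above every cerebellum library, as 4.38% of genes tested were, and 3 of the 5 spinal cord libraries had no read of it. White matter was higher than cerebellum by 2.13 ± 0.59 (limma adjusted p = 0.017, 9.76% of genes called in this pair) and higher than spinal cord by 2.36 ± 0.62 (limma adjusted p = 0.0054). These values rest on 0 to 123 reads per library. The first call was lost with a pseudocount of 0.1 (adjusted p = 0.0753) and with voom on the recovered reads (0.0618). Without spinal cord libraries 4 and 7 the second difference was 1.64 (adjusted p = 0.0776). Cortex minus spinal cord, not called, passed for Ctsh without cortex library 3 or without spinal cord library 5 or 8 (adjusted p = 0.022, 0.0248 and 0.0447).

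The other members did not pass in any region pair. Mean Ctsb was highest in cerebellum at 317 ± 91.1 RPKM (SD, n = 6), then white matter at 278 ± 86.7 (n = 6), cortex at 228 ± 42.3 (n = 7) and spinal cord at 225 ± 59.3 (n = 5). Ctsl was near 72.5 to 74.5 RPKM in cortex, spinal cord and white matter and at 111 ± 31.2 RPKM in cerebellum, and Ctsa ran from 40.8 ± 14.3 in cortex to 67.3 ± 33.7 RPKM in white matter. Ctsc was low, with means of 0.766 to 2.63 RPKM and single high libraries in several regions, such as 8.11 RPKM in spinal cord library 4 against at most 0.463 RPKM in the other 4; without that library cortex minus spinal cord for Ctsc was 1.75 (adjusted p = 0.0431). Ctse had no read in 19 of 24 libraries and was not tested, its highest value being 2.91 RPKM (45 reads) in spinal cord library 3. No cathepsin was called between cortex and white matter, where 5.39% of genes were, or between cerebellum and spinal cord, where 22.6% were.

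**Figure D4:**
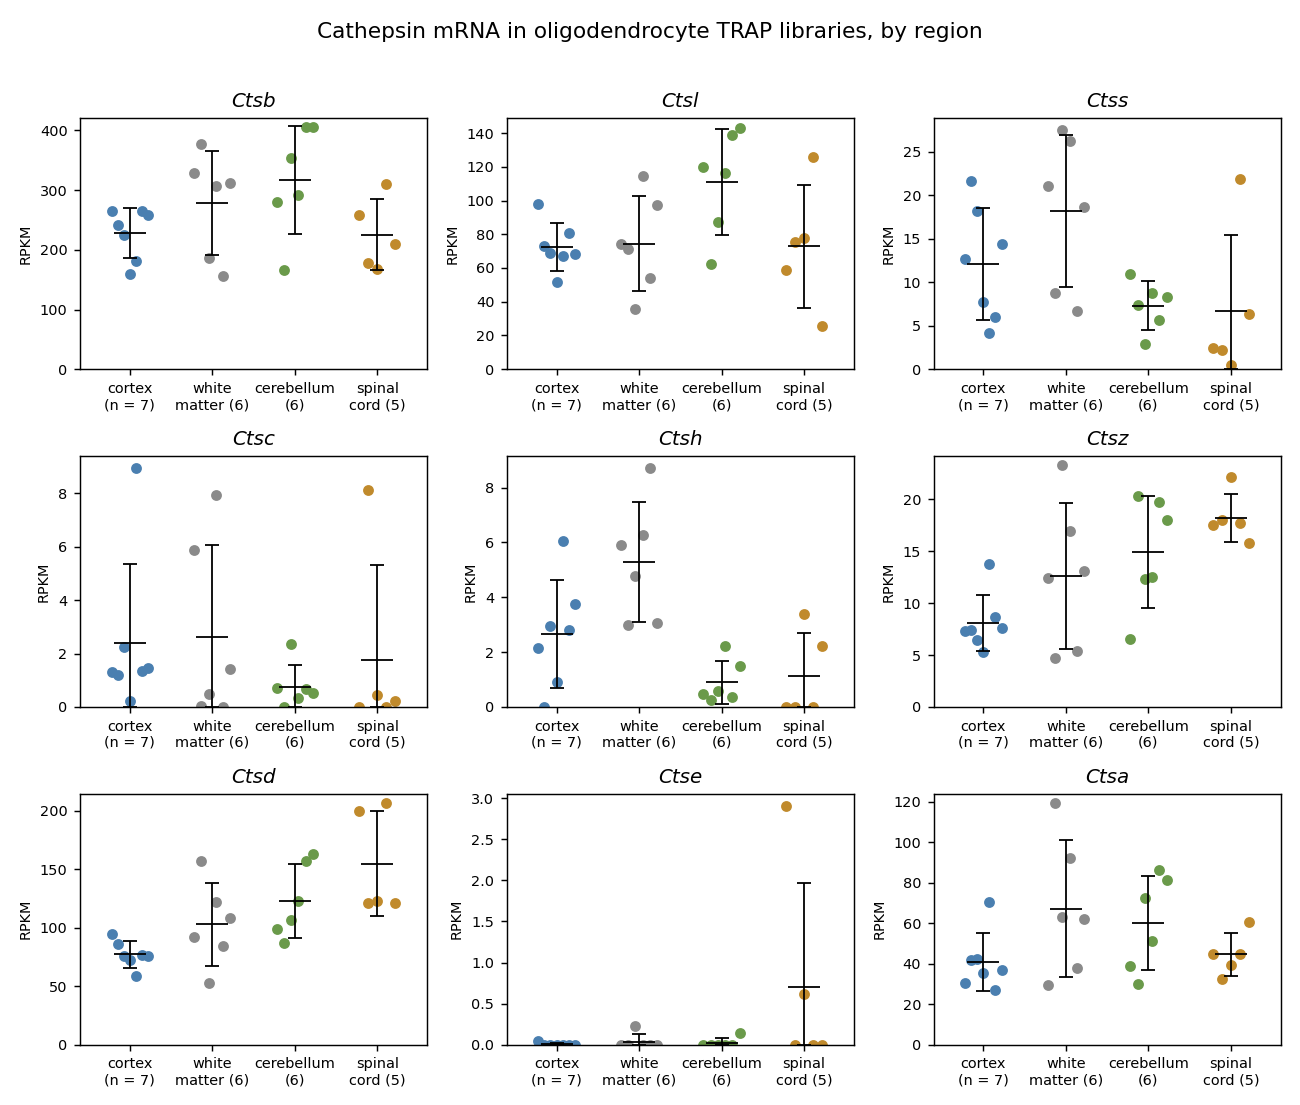
RPKM (vertical axis, from 0) of the 9 cathepsins in each TRAP library by region (points), with mean and SD (black bars cut at 0, n = 7, 6, 6 and 5). Ctsd and Ctsz are lowest in cortex and highest in spinal cord, all 5 spinal cord points lying above all 7 cortex points, and Ctsh is highest in white matter.

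Microglia markers in the TRAP libraries were low and differed by region, beside the differences in Ctss and Ctsh. Cortex libraries had a summed 56 to 80.5 RPKM, those of white matter 56.1 to 106 RPKM, those of cerebellum 21.9 to 43.8 RPKM and those of spinal cord 39.4 to 102 RPKM, with 9 of 15 passing the F test, 7 of 15 higher in cortex than in spinal cord and 1 lower. Ptprc was at 0 in all 5 spinal cord libraries, and the 1 lower was Sall1. Oligodendrocyte markers were lower in cortex than in spinal cord for 8 of 10. Border macrophage markers summed to at most 9.48 RPKM in any TRAP library. The part of microglial RNA in these cathepsin differences was not tested.

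Around each region's mean, Ctsb and Ctsd moved together over the 24 TRAP libraries (Pearson r = 0.79). Among genes tested, with predicted genes (Gm or Rik names) left out, Ctsb was the second most alike gene to Ctsd, between Hes5 (0.79) and Psmd14 (0.76). The libraries share depth and tissue quality, so the value is a description. Ctsl followed both, at r = 0.65 with Ctsd and 0.60 with Ctsb. Ctss and Ctsh did not go with them or with each other (r = -0.33 between the pair). The 3 genes most like Ctsa were Ugt8a (0.82), Npc1 (0.78) and Slc3a2 (0.77). Ugt8a makes the main galactolipid of myelin, and Npc1 is the lysosomal cholesterol transporter gene. Other members had a most alike gene at similar r: Sirt3 for Ctsc (0.87), Psmc2 for Ctsb (0.83) and Sh3yl1 for Ctsl (0.81). For Ctss, Ctsh and Ctsz it was Eepd1, Mxra7 and Arap1 (0.8 each). Such values are the highest picked from the genes tested, and a shared function was not tested.

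Most cathepsins had lower levels in the oligodendrocyte TRAP table than in the bulk tables. The tables were normalized separately and made with 2 kinds of kit, so levels are set side by side without a test. Ctss averaged 12.1 RPKM in cortex TRAP and 78.6 RPKM in bulk wild-type prefrontal cortex, Ctsd 77.4 and 248, Ctsz 8.07 and 32, and Ctsh 2.66 and 11.5. Ctsl was nearly level at 72.5 and 69.5 RPKM, and Ctsa (40.8 and 58.4) and Ctsb (228 and 405) lay between. Over the 9 the median log2 ratio of TRAP to bulk was -1.25, against -2.11 for microglia markers, -0.55 for other lysosomal hydrolases and 2.76 for oligodendrocyte markers. Neuron markers were at -0.54 and astrocyte markers at -1.74, so RNA of other cell types was read in cortex TRAP as well. Which cell type the TRAP cathepsin levels come from was not tested.

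**Figure D5:**
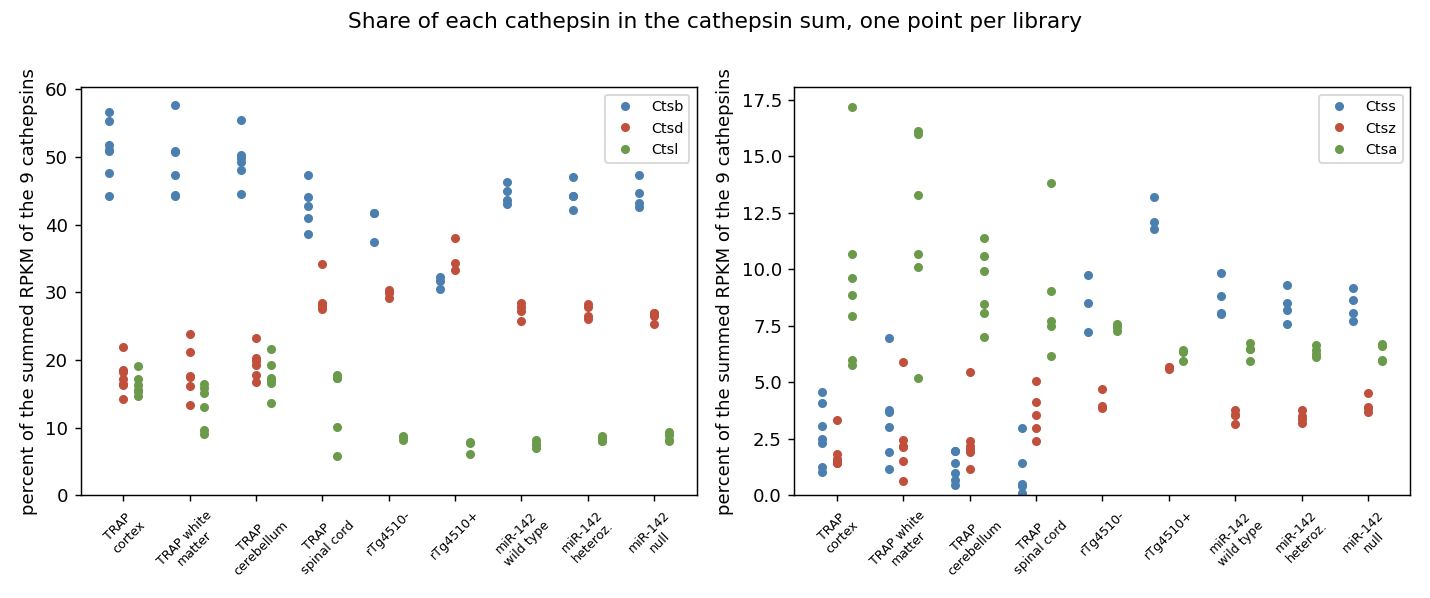
Share of 6 cathepsins in the summed RPKM of the 9 (vertical axes, percent, from 0), with 1 point per library for each of the 9 groups. Ctsd shares in spinal cord TRAP (27.5% to 34.2%) lie above those of the other TRAP regions, and in rTg4510+ the Ctss share (11.8% to 13.2%) lies above that of rTg4510- while the Ctsb share (30.5% to 32.3%) lies below.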

How the data were processed

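The authors deposited 3 tables of RPKM, for 24 TRAP, 6 rTg4510 and 12 miR-142 libraries. STAR, HTSeq and the mm10 build stand in the submitters' processing notes, without versions. Per the labels' protocols, 2 kits were used (NuGEN with RiboZero, and TruSeq Stranded with RiboZero Gold), and the tables were analysed apart. Whole reads were recovered from the RPKM steps for 18782 of 18782 genes above 0 (within 0.005 of a whole number), and the authors' lengths for the 9 cathepsins equal coding lengths in GENCODE vM21 without the stop codon.

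Tests used limma 3.58.1 (R 4.3.3; trend, robust) on log2(RPKM + 0.5), Benjamini-Hochberg over all genes with at least 0.5 RPKM in 5 TRAP, 3 rTg4510 or 4 miR-142 libraries, in 1 fit per table. The 9 members, the lists and the rules (every member named; from each other list at most 4 called genes, ordered by adjusted p, or 2 abundant ones where none was called; the 3 most alike genes) were chosen with earlier results of these data known. Genes beyond that rule (P2ry12, M6pr, Igf2r, Lpl, Sall1, Ctsf, Ctsk and the Y-linked genes) were chosen after their values were seen. Checked on simulated reads, the fit recovered 85% of 2-fold changes (log2 of 1) in the rTg4510 design, 97% in null against wild type and 99% in cortex against white matter. The simulation gave every gene the same set spread and changed only genes with enough reads. Real spread differed by gene: the SD of Ctss was 53.5% of its mean in cortex TRAP and 48% in white matter TRAP. These shares therefore check the fit and do not give the power for the cathepsins here.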

Additional observations from a re-analysis of the deposited data

Results flagged for a closer look

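Of 63 sets of 1 cathepsin in 1 group of 4 to 10 libraries, 7 had 1 library far from the rest. The gap to its nearest neighbour was one that chance gives in about 1 of 20 sets of normally distributed values. Ctsc was at 8.11 RPKM (96 reads) in spinal cord TRAP library 4 and at 0 to 0.463 RPKM in the other 4. Ctse stood out through 5 reads or fewer in cerebellum library 8 (0.138 RPKM), cortex library 2 (0.0422 RPKM) and white matter library 5 (0.228 RPKM), where all other libraries of these regions had none. With all others at 0 a single read is enough to be flagged, so the rate above does not hold for these Ctse sets. Ctsa was at 62.3 RPKM in heterozygous library 4 against 58.6 to 59 RPKM in the others. Ctsz was at 44.1 RPKM in null library 3 against 36.4 to 37.5 RPKM, and at 36.5 RPKM in wild-type library 1 against 30.2 to 31.1 RPKM. No cause was tested.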

How the results depend on the processing

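No alternative turned the direction of a called result; the cause of the changes below was not tested. In rTg4510 cortex all 9 cathepsins stayed called with each other pseudocount, filter, scaling and weighting and with voom on the recovered reads. Without moderation, an alternative chosen after seeing the data, 4 cathepsins and 213 genes were called instead of 9 and 1037, and with library weights 5018 genes. Leaving out 1 library gave 8 to 9 cathepsins and 264 (without rTg4510+ library 3) to 2323 genes (without rTg4510+ library 1). Relative to the microglia markers, leaving out 1 library gave 4 to 5 cathepsins, and library weights gave 7, with Ctsc called higher (0.57, adjusted p = 2.63e-06) and Ctsb called lower (-0.25, adjusted p = 0.00191).

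Between miR-142 null and wild type, 65 genes and no cathepsin were called. There were 0 genes with a pseudocount of 1, with median-of-ratios scaling or with the title code as a covariate (null and wild type share no code), 2 without the filter, 219 with these groups alone, and 1297 and 1 cathepsin (Ctsz) with library weights. Without 1 library there were 0 to 697 genes and 0 to 1 cathepsins. Heterozygous against wild type had 0 genes, 1 with library weights and 0 to 4 without 1 library.

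Among TRAP regions, the F test called 3 cathepsins, 7 with library weights and 2 to 4 without 1 library. Quantile normalization lost Ctsd and Ctss in the F test and called Ctsz. Cortex against white matter called 754 genes, and 1158 with quantile normalization, 2589 with library weights, 1404 with these regions alone, 1355 without spinal cord libraries 4 and 7, and 296 to 1028 without 1 library. Cortex against cerebellum called 1 cathepsin, 0 with median-of-ratios scaling, 3 with these regions alone, 7 (of 7522 genes, in place of 3444) with library weights, and 0 to 2 without 1 library. Cortex against spinal cord called 3, and 2 to 4 without 1 library. White matter against cerebellum called 1 cathepsin and 1364 genes, 0 cathepsins with a pseudocount of 0.1 or voom, and 2 cathepsins and 2352 genes with library weights. White matter against spinal cord called 2 cathepsins and 3869 genes, and 1 with quantile normalization, without spinal cord libraries 4 and 7, with library weights (2461 genes) or with these regions alone (2200 genes). Cerebellum against spinal cord called 0 cathepsins and 3162 genes, 1 cathepsin with quantile normalization (Ctsb), and 1 (Ctsl) with library weights, voom or without spinal cord libraries 4 and 7; with these regions alone it called 2033 genes, and without 1 library 0 to 1 cathepsins.

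TRAP libraries of different regions share numbers in their titles, and the labels do not say what a shared number means. Deviations of same-numbered libraries correlated at r from -0.236 to 0.272 (median 0.06, over 0.1 in 13 of 31 pairs), and those of differently numbered ones at a median of -0.02 (over 0.1 in 24 of 184 pairs). Same-numbered pairs were thus over 0.1 more often, though not all were. The main fit did not treat the samples as paired, and these values cannot show that they are unrelated. With the replicate block, cortex against cerebellum called 0 cathepsins (Ctsd, adjusted p = 0.0728), and the calls of Ctss were lost in the F test (0.0666) and between cortex and spinal cord (1.34, adjusted p = 0.0775). Ctse, Ctsc and Ctsh had few or no reads in single TRAP libraries, including the deepest cortex library (24.73 M reads, 0 of Ctsh) and the deepest spinal cord library (12.99 M reads, 0 of Ctsh and Ctsc).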
